A study of Mus musculus with 14 samples.

Results

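Genomic imprinting leaves a gene active from the maternal or from the paternal copy alone, and many imprinted genes act on growth. The genes described here are 9 such genes: Mest, Dlk1, Peg3, Plagl1 and Ndn, which are active from the paternal copy, and Cdkn1c, Meg3, Igf2r and Grb10, which are active from the maternal copy in most tissues. They were chosen by symbol from a fixed list and looked up by Ensembl identifier in the input table and by Entrez identifier in the RNA immunoprecipitation (RIP) tables. Of the 9 genes, 7 had a row among the 14826 genes of the input table, 4 among the 9416 genes of the m6A-RIP table, 3 among the 4527 genes of the Igf2bp3-RIP table and the same 3 among the 3493 genes of the Lin28a-RIP table. Dlk1 and Meg3 had no row in any of these tables and were not analysed here.

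The libraries came from cultured mouse muscle stem cells (MuSCs), the satellite cells that repair skeletal muscle. Lin28a+ MuSCs carry the genotype label Lin28a positive and control MuSCs the genotype label Control; per the paper, Lin28a+ cells were sorted from skeletal muscle of Lin28a-CreERT2; LSL-tdTomato mice, in which cells that use the Lin28a promoter are marked when Cre is active, so the mark records past as well as present activity. The labels give no age, and the paper's general statement that experiments had biological replicates does not say how the 2 libraries of each group here were obtained, so the p-values measure only the spread between these libraries. Each group had 2 input, 2 m6A-RIP and 2 Igf2bp3-RIP libraries, and Lin28a+ MuSCs also had 2 Lin28a-RIP libraries. In the input table both Lin28a+ columns bear titles of m6A-RIP samples, against their labels, and in the m6A-RIP table both Lin28a+ columns bear 1 and the same title. They were therefore taken as library a and library b of the group that each table stands for, with no replicate number, and every RNA and m6A result below rests on them. Input totals ran from 4842915 to 6220960 counts and RIP totals from 9215355 (Igf2bp3-RIP, control replicate 1) to 36610494 counts (Lin28a-RIP replicate 1).

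Muscle stem cell and myoblast markers were present in every input library, with a summed level over all 10 markers of 15038 and 15298 CPM (counts scaled to an equal library total, from TMM-scaled library sizes) in control MuSCs and 12089 and 12220 CPM in Lin28a+ MuSCs. The markers of differentiating myocytes, 8 of 8 with a row, summed to 5787 and 5818 CPM in control and to 6603 and 6596 CPM in Lin28a+ MuSCs. These sums hold opposite changes: Acta1 went from 3820 ± 5.45 to 1824 ± 16.2 CPM and Myog from 770.1 ± 6.39 to 2789 ± 28.7 CPM (SD, n = 2), while the fall of the stem cell sum was largely that of Chrna1, from 5961 ± 41.7 to 3142 ± 32.8 CPM. Of the 10 stem cell and myoblast markers 6 fell in RNA, among them Megf10, Vcam1, Myf5, Sdc4 and Des with log2 fold changes of -2.21, -1.93, -1.21, -1.10 and -0.53, and 2 rose, 1 of them Pax7, from 149 ± 8.43 to 191 ± 3.75 CPM. In m6A-RIP 4 of these 10 markers were called higher and 5 lower. Megf10 was among the higher there, at 0.71. Of 8 endothelial markers 3 had an input row and of 8 macrophage markers 4. Each list summed to at most 2.62 CPM in any input library, and none of these genes passed the filter of the RNA test. In m6A-RIP 3 endothelial markers were tested, where 66.3% of all genes were called. Cdh5 and Egfl7 were called higher there, by 1.11 and 0.33 on the log2 scale, and Esam was not called. Of 8 pericyte or smooth muscle markers 6 had a row, and they summed to 5554 and 5599 CPM in control MuSCs and to 7677 and 7693 CPM in Lin28a+ MuSCs. Nearly all of that sum was Acta2, at 5420 ± 26.5 and 7430 ± 13.03 CPM (SD, n = 2), while Mcam went from 6.27 ± 0.67 to 56.2 ± 0.27 CPM and Rgs5 from 13 and 13 counts to 1 and 1. Of 8 fibro-adipogenic progenitor markers 5 had a row, with sums of 10.3 and 11.1 CPM and of 30.5 and 30.7 CPM. The input values look like means over the transcripts of a gene. The weight of each marker in a sum would then also depend on the number of transcripts annotated. The part of these cell types in the changes below was not tested. The level of Lin28a itself was not analysed here and gives no check of the sort.

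The imprinted growth genes act at different points of the growth machinery. Igf2r is a receptor that removes the growth factor Igf2 from the cell surface, and Grb10 is an adaptor that dampens signals of the insulin and IGF receptors. Cdkn1c, also called p57, is an inhibitor of cyclin-dependent kinases that holds cells out of the cell cycle. Plagl1 is a zinc finger transcription factor, Peg3 a very large zinc finger protein, Ndn a MAGE family protein, and Mest an enzyme-like membrane protein of the alpha/beta hydrolase fold. Mest also hosts the microRNA Mir335 within its span.

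The promoters of the members whose RNA fell (Peg3, Plagl1 and Ndn), of Mest, whose RNA rose, and of Igf2r, whose start carries a Lin28a-RIP peak, are shown for reference. Each sequence is a RefSeq window of 300 bases on GRCm38.p6 (mm10), 5′ to 3′ along the gene, from 250 bases before to 50 bases after an annotated start. In the first 4 windows the capitals mark the letters GGGCGG or, on the other strand, CCGCCC, the box of the Sp1 factor; in the Igf2r window they mark the 18 bases that a Lin28a-RIP peak covers.
Mest, chr6:30737800-30738099, plus strand: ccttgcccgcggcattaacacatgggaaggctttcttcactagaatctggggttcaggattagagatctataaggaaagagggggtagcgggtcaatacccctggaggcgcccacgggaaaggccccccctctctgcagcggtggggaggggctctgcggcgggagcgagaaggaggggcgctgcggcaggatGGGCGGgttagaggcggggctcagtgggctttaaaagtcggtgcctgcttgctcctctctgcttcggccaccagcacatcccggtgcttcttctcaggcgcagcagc
Peg3, chr7:6730370-6730669, minus strand: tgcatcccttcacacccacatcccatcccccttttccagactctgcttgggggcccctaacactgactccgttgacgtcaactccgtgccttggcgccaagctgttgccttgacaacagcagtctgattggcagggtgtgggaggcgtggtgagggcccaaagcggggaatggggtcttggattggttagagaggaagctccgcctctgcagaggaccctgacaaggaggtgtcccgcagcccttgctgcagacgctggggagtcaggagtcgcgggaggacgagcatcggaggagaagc
Plagl1, chr10:13090582-13090881, plus strand: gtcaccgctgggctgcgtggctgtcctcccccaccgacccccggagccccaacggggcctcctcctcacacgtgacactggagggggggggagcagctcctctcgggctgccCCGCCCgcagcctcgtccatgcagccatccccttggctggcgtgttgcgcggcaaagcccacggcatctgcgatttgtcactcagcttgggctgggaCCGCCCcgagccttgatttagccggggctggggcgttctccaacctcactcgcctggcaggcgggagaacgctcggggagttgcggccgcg
Ndn, chr7:62348027-62348326, plus strand: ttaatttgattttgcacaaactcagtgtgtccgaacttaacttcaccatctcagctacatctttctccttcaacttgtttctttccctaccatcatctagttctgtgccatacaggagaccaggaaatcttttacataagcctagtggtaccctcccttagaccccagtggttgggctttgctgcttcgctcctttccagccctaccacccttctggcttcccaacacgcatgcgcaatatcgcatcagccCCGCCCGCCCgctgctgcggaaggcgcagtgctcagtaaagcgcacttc
Igf2r, chr17:12769657-12769956, minus strand: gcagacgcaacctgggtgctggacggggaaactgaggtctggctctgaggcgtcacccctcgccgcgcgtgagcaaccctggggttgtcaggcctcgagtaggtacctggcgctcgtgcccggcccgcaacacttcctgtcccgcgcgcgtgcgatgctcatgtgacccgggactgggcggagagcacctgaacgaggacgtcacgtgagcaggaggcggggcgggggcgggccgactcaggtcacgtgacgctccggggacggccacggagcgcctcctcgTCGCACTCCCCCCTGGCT
The box GGGCGG was searched on both strands, with overlapping matches counted, and occurred in 35.6% of the 32817 RefSeq promoter windows. It was found 1 time in the Mest window, 2 times in the Plagl1 window, 2 times in the Ndn window, where the matches overlap, and 3 times in the Igf2r window, and these letters were not in the Peg3 window. The letters GCCATNTT, a YY1 site, were in 6.04% of all windows and in none of the windows shown. Counts of the dinucleotide CG were 17 (Mest), 13 (Peg3), 26 (Plagl1), 11 (Ndn) and 34 (Igf2r) beside a median of 7 over all windows. Mest has 3 annotated windows, of which the second is shown. Cdkn1c is named without a promoter.

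RNA levels were compared first. Mest and Cdkn1c were higher in Lin28a+ MuSCs, by 7.01-fold and 25.0-fold, while Ndn, Peg3 and Plagl1 were lower, by 5.98-fold, 2.13-fold and 1.29-fold, and Igf2r differed by less than the spread between libraries. Of the 9 members, 6 passed the filter on low counts, and 5 of these passed an adjusted p under 0.05 in edgeR's quasi-likelihood test with Benjamini-Hochberg adjustment over all 11317 genes tested; with at least 10 counts required in every library Cdkn1c was not tested and 4 were called. In the same test 56.8% of all genes were called, 28.1% higher and 28.7% lower, and since the members were proposed with these results known, nothing is read from their share. In bulk libraries, more cells that use a gene and more RNA per cell cannot be told apart.

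Mest (ENSMUSG00000051855), at chr6:30733506-30748466 on the plus strand, stood at 43.3 and 44.2 CPM in the control libraries and at 306 and 308 CPM in the Lin28a+ libraries. The groups lay far apart and the libraries of each group nearly coincided. The log2 fold change was 2.81 (standard error 0.069), with an adjusted p of 1.42e-06 in edgeR's quasi-likelihood test. The last 913 bases of the Mest span overlap Copg2, itself imprinted, and the sources used here do not state whether counting used the strand. Copg2 changed much less, from 30.4 ± 0.94 to 42.6 ± 3.31 CPM (SD, n = 2). Mest had no row in the RIP tables, so it was not analysed in those assays.

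Cdkn1c (ENSMUSG00000037664), at chr7:143458339-143461059, stood at 3 and 2 rounded counts in control MuSCs and at 57 and 51 in Lin28a+ MuSCs, so it entered the test only through the group where it was high. Per unit of TMM-scaled library size, the ratio of the summed rounded values was 25.0. An exact 95% interval that takes these values as read counts was 10.4 to 78.6. The input values look like means over the transcripts of a gene. This interval may thus not measure the counting error of reads. Both Lin28a+ libraries lay far above both control libraries, where the values were low. The fitted log2 fold change was 4.57 (standard error 0.66), and no p is given for it because of how it entered the test.

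Ndn (ENSMUSG00000033585), at chr7:62348277-62349928 on the plus strand, fell from 89.7 and 94.8 CPM to 16.9 and 13.9 CPM. Its 1652 bases lie wholly within a longer non-coding gene, Gm32061. The log2 fold change was -2.58 (standard error 0.12, adjusted p = 1.19e-05 in edgeR's quasi-likelihood test). Peg3 (ENSMUSG00000002265), at chr7:6703892-6730462 on the minus strand, fell from 867.1 and 868.4 CPM to 397 and 416 CPM, a log2 fold change of -1.09 (standard error 0.029, adjusted p = 7.80e-06 in edgeR's quasi-likelihood test). In both genes the groups did not overlap. Peg3 overlaps the antisense RNA Peg3os over 865 bases.

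Plagl1 (ENSMUSG00000019817), at chr10:13090832-13131694 on the plus strand, measured 28.8 and 29.1 CPM in the control libraries, against 22.6 and 22.5 CPM in the Lin28a+ libraries. The difference was small but the groups did not overlap, and the log2 fold change was -0.36 (standard error 0.12, adjusted p = 0.00750 in edgeR's quasi-likelihood test). With DESeq2 the fall was of the same size, -0.37, but the adjusted p was 0.314 and the call was lost. The first 5056 bases of its span are shared with the non-coding gene Hymai.

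Igf2r (ENSMUSG00000023830), at chr17:12682406-12769706 on the minus strand, measured 243.1 and 242.6 CPM in the control libraries, against 241.2 and 242.9 CPM in the Lin28a+ libraries, so the groups overlapped. The log2 fold change was -0.0052 (standard error 0.040, adjusted p = 0.922 in edgeR's quasi-likelihood test), and its sign turned with the scaling and the filter. Igf2, the growth factor it clears, fell from 893 ± 14.3 to 86.3 ± 1.13 CPM (SD, n = 2), and H19, the non-coding RNA of the same locus, rose from 59677 ± 884 to 101706 ± 1895 CPM in m6A-RIP. Grb10 (ENSMUSG00000020176), at chr11:11930499-12037428, was listed at deposited values of 0.67 and 0.56 in control and 0.78 and 0.56 in Lin28a+ MuSCs and did not pass the filter, so it has no fold change here.

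Read by parental copy, the 4 paternally expressed members that were tested did not move together: Mest rose and Peg3, Plagl1 and Ndn fell, with a median log2 fold change of -0.73 beside 0.0098 over all genes tested. Of the 2 maternally expressed members that were tested, Cdkn1c rose and Igf2r did not pass the test. With 4 and 2 genes, the classes were not compared by a test, and the copy in use was not measured in these cells.

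**Figure D1:**
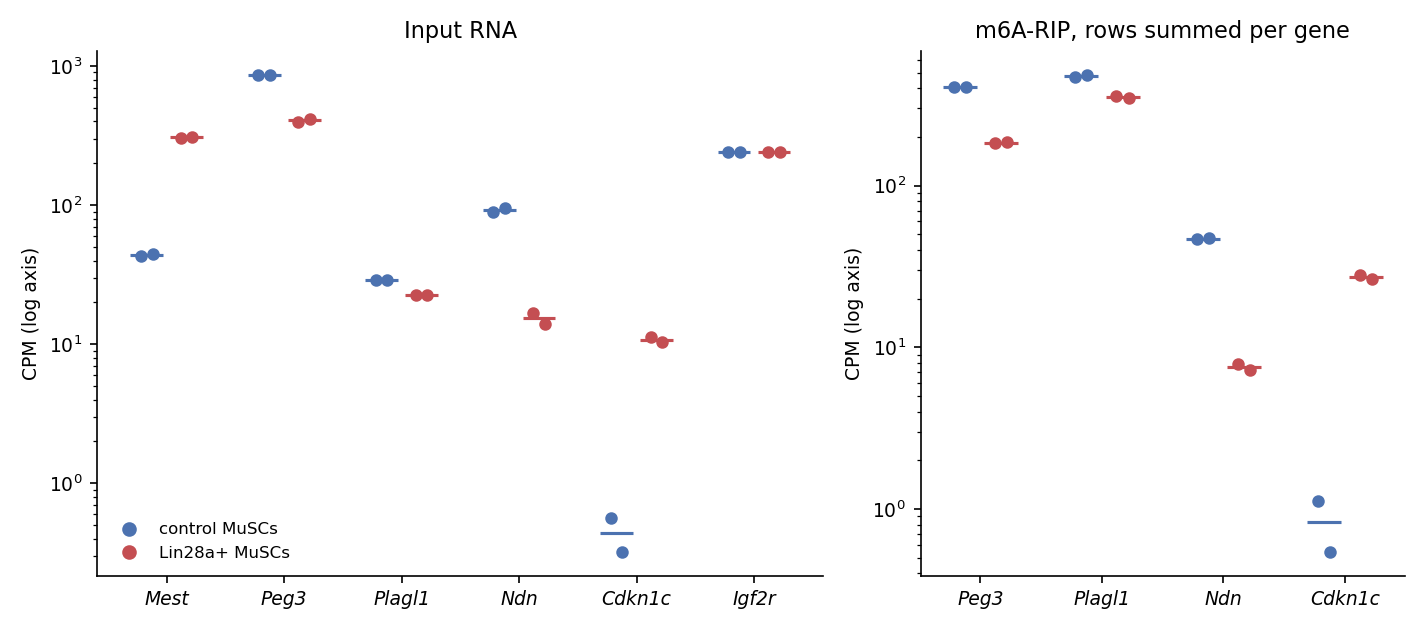
Level of each member by library in CPM on a log axis, for input RNA (left) and m6A-RIP with the rows of a gene summed (right); points are libraries, bars are means of 2 libraries, blue is control and red is Lin28a+ MuSCs. Mest rises from 43.8 to 307 CPM in the input and Ndn falls from 92.3 to 15.4 CPM, while the 4 points of Igf2r lie on one level.

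The m6A-RIP recovers RNA with an antibody against N6-methyladenosine (m6A), a common internal mark of mRNA, so its counts follow both the amount of a transcript and how strongly it is marked. All 4 members with rows moved in the direction of their RNA: Cdkn1c rose, and Ndn, Peg3 and Plagl1 fell. With rows summed per gene, all 4 passed the threshold in edgeR's quasi-likelihood test, in which 66.3% of the 9416 genes were called. With library totals as the scale the median of all genes shifted by -0.10 (log2) and the calls split into 2395 higher and 3766 lower genes, against 3060 and 3179 with TMM; the directions of the 4 members held.

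Cdkn1c had 37 and 12 m6A-RIP counts in control libraries and 646 and 797 in Lin28a+ libraries. Per unit of TMM-scaled library size the ratio was 30.6, with an exact 95% interval of 23.0 to 41.6 for counting error only. The control libraries differed beyond that error: the fitted log2 fold change was 4.95, and it was 5.64 without control replicate 1 and 4.60 without control replicate 2. Ndn fell from 46.4 and 47.6 CPM to 7.91 and 7.23 CPM, a log2 fold change of -2.64 (standard error 0.094). Peg3 fell from 407 and 410 CPM to 183 and 185 CPM (log2 fold change -1.15, standard error 0.039). Plagl1 fell from 470 and 485 CPM to 356 and 348 CPM (log2 fold change -0.44, standard error 0.039). In none of these genes did the groups overlap.

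The 9 single rows of the members, which are peaks of their transcripts and not replicates, gave the same picture. All 9 were called, 1 higher and 8 lower, beside 61.8% of the 18881 rows tested (30% higher and 31.8% lower). With library totals as the scale the rows called split into 3842 higher and 7638 lower, against 5665 and 6005, and the 9 member rows kept their directions. The 3 Plagl1 rows differed little, with log2 fold changes of -0.38 to -0.40, whereas the 4 Peg3 rows ran from -1.05 to -1.35.

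The m6A-RIP change was then set against the RNA change in a model of both assays. None of the 4 members was called, and none had an unadjusted p under 0.05, where edgeR called 7.13% of the 7950 genes tested (3.04% higher and 4.09% lower) and DESeq2 also called none of the 4. The extra change of m6A-RIP over RNA was -0.070 ± 0.043 for Peg3, -0.094 ± 0.13 for Plagl1, -0.071 ± 0.15 for Ndn and 0.29 ± 0.69 for Cdkn1c (log2, ± standard error). The value for Peg3 is the most precise of the 4, and that for Cdkn1c leaves room for a change of either sign, since its control counts were few. For Ndn and Cdkn1c, leaving out 1 library turned the sign.

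Relative to the input, the members were recovered very unevenly by the m6A antibody. Plagl1 had a log2 ratio of m6A-RIP CPM to input CPM of 4.00 in control and 3.91 in Lin28a+ MuSCs, at the percentiles 98.4 and 98.2 of the 7414 genes in both tables. Peg3, at -1.09 and -1.14, and Ndn, at -0.96 and -0.94, lay at percentiles of 18.1 to 20.6, below the median genes at 0.51 and 0.48. The ratio of Peg3 counts only rows filed under its own name; whether m6A-RIP rows filed under Zim1 also lie in Peg3 was not tested, so its place among the genes may be too low. Cdkn1c, with few control counts, had 0.35 and 1.26, at the percentiles 45.8 and 69.7. A pseudocount of 1 CPM was added before taking ratios. The input values look like means over the transcripts of a gene, so the order of genes in such ratios also depends on the number of transcripts annotated.

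Igf2bp3 is an RNA-binding protein that reads m6A marks and stabilises mRNA, and Lin28a is an RNA-binding protein best known for blocking the maturation of let-7 microRNAs. Of the members, Peg3, Plagl1 and Igf2r had peaks for both proteins, and these 3 are also the members for which binding could be followed between the groups. The mean Igf2bp3-RIP signal on Plagl1 was higher in Lin28a+ than in control libraries although its RNA was lower. That on Peg3 was lower by less than its RNA, and that on Igf2r stayed within the spread. None of these differences passed the test, which was fitted without a replicate block.

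The signal of Plagl1 lay almost wholly in 1 wide peak of 4644 bases at chr10:13127012-13131655, which ends 39 bases before the 3′ end of the gene. Its counts were 6820 and 32781 in the control libraries and 16605 and 99110 in the Lin28a+ libraries, or 750 and 1196 CPM against 1320 and 2838 CPM. Both Lin28a+ libraries were above both control libraries, but the 2 libraries of each group were far apart, the second being higher in both. The log2 fold change was 1.10 (standard error 0.47, adjusted p = 0.982 in edgeR's quasi-likelihood test without a replicate block). The lack of a call depends on leaving the block out, as given below with the dependence on processing. The other peak, of 248 bases at chr10:13124710-13124957, measured 21.8 and 51.1 CPM against 34.3 and 104 CPM, so its groups overlapped, with a log2 fold change of 0.92 (standard error 0.61).

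The 7 peaks filed under Peg3 had log2 fold changes of -0.37 to -0.48, and in 4 of them the groups did not overlap. The 13 peaks filed under Igf2r had log2 fold changes of -0.24 to 0.14, and in 5 of them the groups did not overlap. Over all 19465 peaks 31.8% had groups that did not overlap. In all, without a replicate block, 0 of the 22 member peaks were called, none had an unadjusted p under 0.05, and DESeq2 called none. Among all 19465 peaks edgeR called 24 (0.123%), and 1017 had an unadjusted p under 0.05. In simulated data with the spread of these libraries, the test called 1% of peaks changed 2-fold and 76% of those changed 4-fold among 19465 peaks, so changes of the size seen at Plagl1 and Peg3 would seldom be called by this test.

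**Figure D2:**
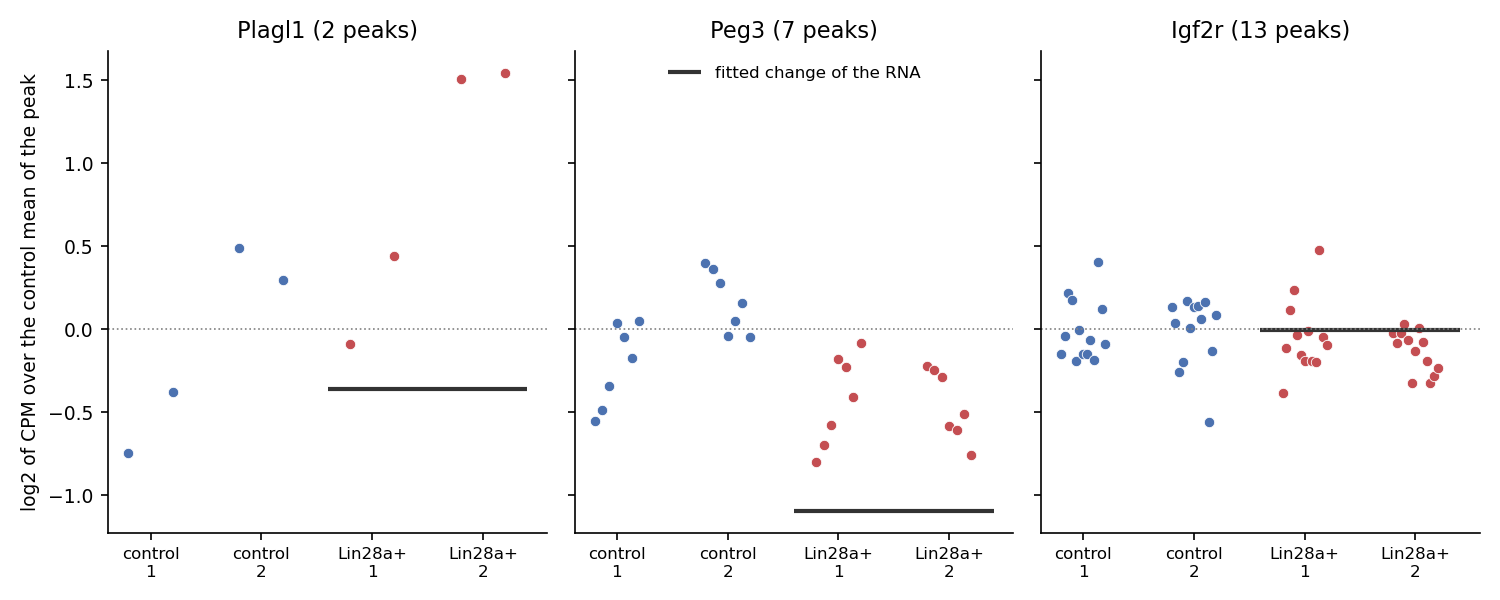
Igf2bp3-RIP peaks of Plagl1, Peg3 and Igf2r by library: each point is 1 peak, drawn as the log2 of its CPM over the mean of its 2 control values, blue for control and red for Lin28a+ libraries, and the black line is the fitted change of the gene's RNA. The Lin28a+ points of Plagl1 stand above the line of its RNA at -0.36 and those of Peg3 above its line at -1.09, with a wide spread between libraries of a group.

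Igf2bp3-RIP was also compared with the RNA in a model of both assays, with the peaks of a gene summed. The extra change of Igf2bp3-RIP over RNA was 1.23 ± 0.62 for Plagl1, 0.43 ± 0.25 for Peg3 and -0.32 ± 0.17 for Igf2r (log2, ± standard error), with adjusted p-values of 0.284, 0.345 and 0.317 in edgeR's quasi-likelihood test. None of the 3 was called, none had an unadjusted p under 0.05, and DESeq2 called none of the 3, where edgeR called 1.04% of 3927 genes. Each assay was scaled on these 3927 genes, so the values are not the plain difference of the changes given above, and with library totals as the scale the median of all genes shifted by 0.14 and the calls split into 33 higher and 13 lower genes, against 14 and 27. The value of Plagl1 depended on single RIP libraries in both directions. It was 1.76 and called without Lin28a+ replicate 1 (edgeR, adjusted p = 0.0483), 0.49 without Lin28a+ replicate 2 (edgeR, adjusted p = 0.51), 0.88 without control replicate 1 and 1.70 without control replicate 2. That of Peg3 was 0.22 without control replicate 1 and 0.68 without control replicate 2, and was called in neither case.

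Set against its input level, Plagl1 again stood high. Its log2 ratio of Igf2bp3-RIP CPM to input CPM was 5.09 in control MuSCs and 6.54 in Lin28a+ MuSCs, at the percentiles 96.8 and 99.1 of 3714 genes. Peg3 had 1.14 and 1.79 (percentiles 46.5 and 53.8) and Igf2r 0.90 and 0.81 (percentiles 41.9 and 38.1), beside median genes at 1.34 and 1.56. These ratios count only peaks filed under the gene's own name. With all peaks that lie in its span, Peg3 had 3.71 and 4.47, at the percentiles 86.6 and 89.5.

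**Figure D3:**
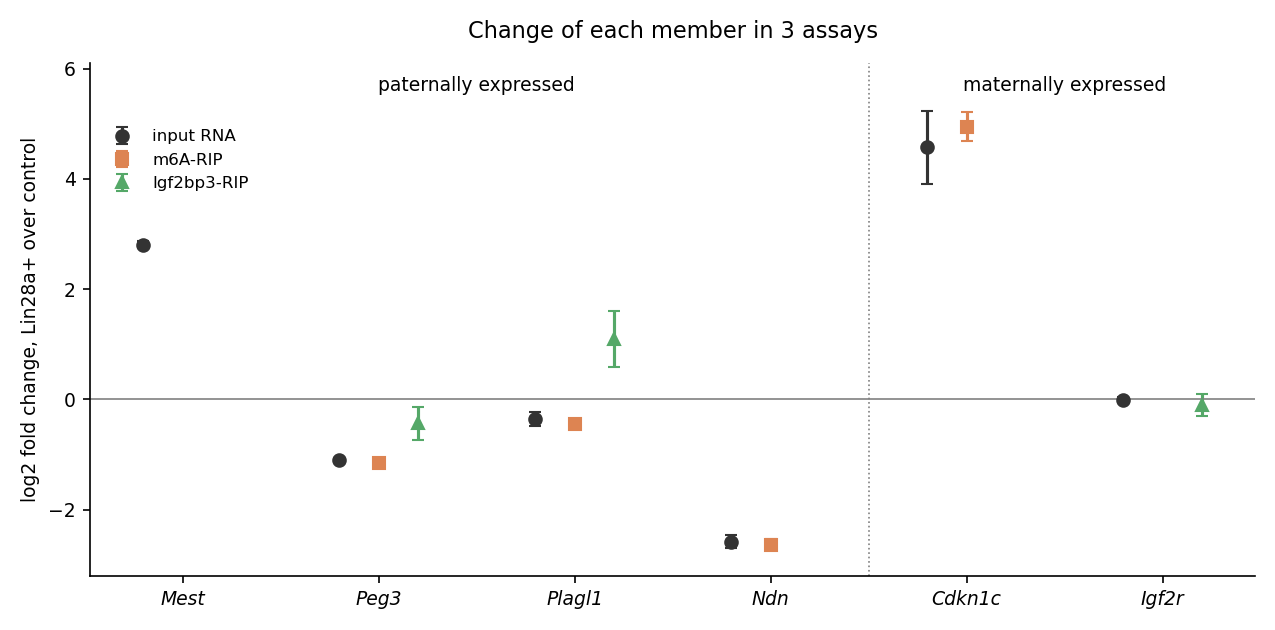
Log2 fold change of Lin28a+ over control MuSCs for the 6 members tested in the input, with standard errors as bars, in input RNA (circles), m6A-RIP (squares) and Igf2bp3-RIP with peaks summed per gene (triangles). The m6A-RIP values lie on those of the RNA, whereas the Igf2bp3-RIP values of Plagl1 (1.10 ± 0.51) and Peg3 (-0.44 ± 0.30) lie above them with wide errors.

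Lin28a-RIP was made only from Lin28a+ MuSCs, so it gives levels and no comparison. Plagl1 had 48309 and 47158 counts in 2 peaks, Peg3 had 66146 and 60274 counts in 6 peaks and Igf2r had 93022 and 86436 counts in 30 peaks, beside a median of 3 peaks per gene. Over input, the log2 ratio was 5.85 for Plagl1, 3.39 for Igf2r and 2.14 for Peg3, at the percentiles 96.7, 76.7 and 58.3 of 2867 genes, when only peaks filed under the gene's own name are counted. With all peaks in its span Peg3 had 4.75, at the percentile 91.1, so no order between Peg3 and Igf2r is read from these ratios. The high ratios of Plagl1 in the m6A, Igf2bp3 and Lin28a libraries all divide by the same low input value, 22.5 to 29.1 CPM, so they are not independent of each other.

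Peaks of both proteins were then compared by position. Of the Igf2bp3-RIP peaks, 2 of 2 in Plagl1, 6 of 7 in Peg3 and 13 of 13 in Igf2r shared at least 1 base with a Lin28a-RIP peak. Seen from the Lin28a-RIP peaks, 2 of 2 in Plagl1, 6 of 6 in Peg3 and 12 of 30 in Igf2r met an Igf2bp3-RIP peak, and these counts stayed the same when each peak had to cover 50% of the other. Over the whole tables, 60.4% of Igf2bp3-RIP peaks and 52.4% of Lin28a-RIP peaks met a peak of the other protein by at least 1 base. The wide Lin28a-RIP peak of Plagl1 at chr10:13127008-13131692 covered 4685 bases and ended 2 bases before the 3′ end of the gene. In Igf2r, 1 Lin28a-RIP peak stood apart from the rest, 32 bases from the start of the gene at chr17:12769407-12769674, with 980 and 1006 counts, the lowest of its 30 peaks. It covers the capitals of the promoter shown above.

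The position of the peaks also showed that the gene name in the peak tables leaves out much of the signal on Peg3 and some of that on Igf2r. The widest peak within the Peg3 span, 8197 bases at chr7:6703923-6712119 in the Igf2bp3-RIP table, starts 31 bases from the 3′ end of Peg3 and is filed under Zim1, an imprinted zinc finger gene whose own span ends 7383 bases away at chr7:6674444-6696540. The Lin28a-RIP table holds the same peak, shifted by 1 base, again under Zim1. In the Lin28a+ libraries this peak held 83.6% and 84.95% of the Igf2bp3-RIP counts and 83.4% and 83.8% of the Lin28a-RIP counts within the Peg3 span.

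In Igf2r, 3 Igf2bp3-RIP and 9 Lin28a-RIP peaks within the span were filed under Airn. Airn, the non-coding RNA that silences the paternal Igf2r copy, is annotated at chr17:12741311-12859884 on the opposite strand, and the peaks filed under it lie 731 to 18885 bases outside that annotation. Over the whole tables, 19.4% of Igf2bp3-RIP and 13.9% of Lin28a-RIP peaks did not overlap the RefSeq span of the gene they were filed under.

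When all peaks within the span of Peg3 or Plagl1 were counted for it, whatever gene they were filed under, the extra change of Igf2bp3-RIP over RNA was 0.53 ± 0.26 for Peg3 and 1.23 ± 0.62 for Plagl1 (log2, ± standard error), and neither was called (adjusted p-values of 0.268 and 0.283 in edgeR's quasi-likelihood test). This count was added after the position of the Peg3 peak had been seen. The wide peak itself measured 8182 and 10524 CPM against 7447 and 7733 CPM, a log2 fold change of -0.30 (standard error 0.37).

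**Figure D4:**
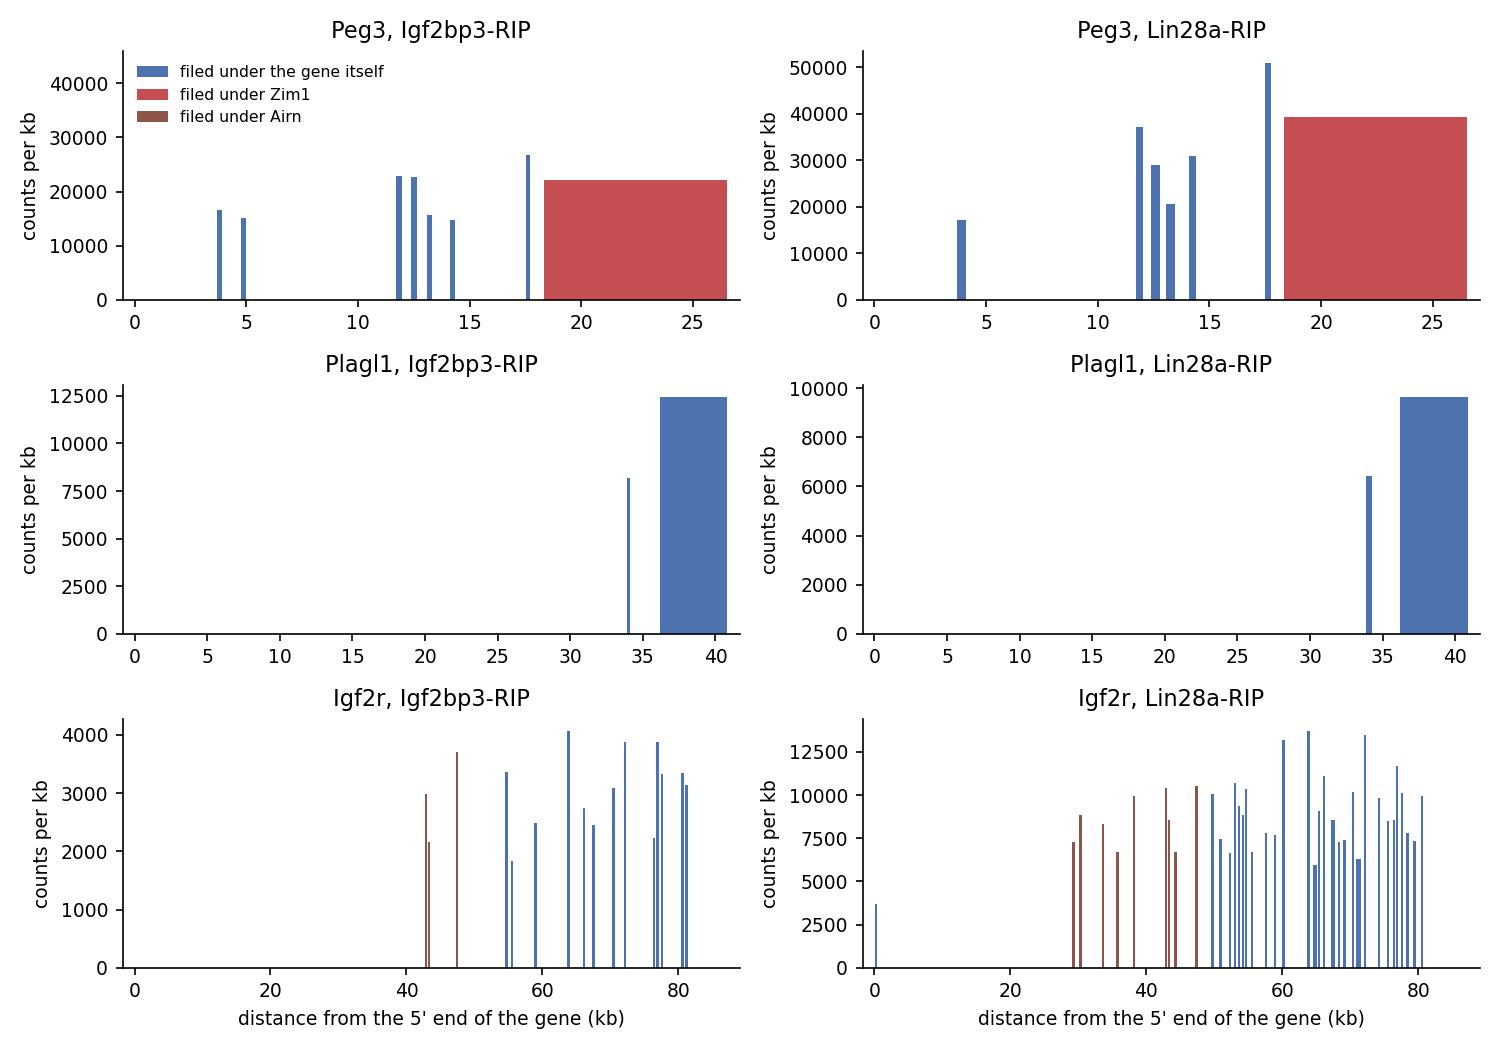
Peaks within Peg3, Plagl1 and Igf2r that were filed under the gene itself, Zim1 or Airn, by distance from the 5′ end of the gene in kb, for Igf2bp3-RIP (left) and Lin28a-RIP (right); the height is the mean count per kb over the 2 Lin28a+ libraries and the colour is the gene the peak was filed under. The wide peak at the 3′ end of Peg3 is filed under Zim1, and the peaks of Igf2r nearer its 5′ end, other than the one at its start, under Airn.

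The genes whose pattern over the 4 input and 4 m6A-RIP libraries was nearest to that of each member, by Euclidean distance of log2(CPM + 1) centred within each assay over 7414 genes, were Sdc4 for Peg3 (distance 0.062), Zbtb18 for Plagl1 (0.045), Cavin4 for Ndn (0.093) and Srrm4 for Cdkn1c (0.69). With a pseudocount of 0.1 CPM they were Sdc4, Bms1, Cavin4 and Bdkrb1. The distance for Cdkn1c is much larger than the others, so no gene was close to it.

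Among 48 other imprinted genes, 29 had an input row and 25 were tested, of which 7 rose, 9 fell and 9 did not pass the test, beside 56.8% of all genes called (28.1% higher and 28.7% lower). The median log2 fold change was -0.043, beside 0.0098 over all genes. Of the 12 genes tested that were listed as paternally expressed 2 rose and 5 fell. Of the 13 listed as maternally expressed 5 rose and 4 fell. These classes are those of the list, and the copy in use was not measured in these cells. Those with the largest falls were Zdbf2, Igf2, Peg10, Inpp5f and Ube3a. Zdbf2 went from 25 and 31 to 1 and 0 in rounded values. Per unit of scaled library size the control over Lin28a+ ratio was 48.4. An exact 95% interval that takes the rounded values as read counts was 8.33 to 1944, with the limit given for Cdkn1c. Peg10, a retrotransposon-derived gene, fell from 596 ± 4.56 to 269 ± 6.80 CPM (SD, n = 2), close to the fall of Peg3 in size. Inpp5f and the ubiquitin ligase Ube3a had log2 fold changes of -0.76 ± 0.23 and -0.70 ± 0.18 (± standard error). Like Cdkn1c, Zdbf2 and Nnat, a small membrane protein, were tested only through the group where they were high; Nnat had 7 and 7 counts in control and 45 and 40 counts in Lin28a+ libraries. The largest of the other rises was that of Cdh15, M-cadherin of the satellite cell surface, from 1358 ± 45.0 to 2311 ± 55.1 CPM. Commd1, Copg2 and Tssc4 rose by 0.60 ± 0.12, 0.49 ± 0.10 and 0.36 ± 0.15 on the log2 scale (± standard error).

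The known partners of the members were read from a list of 20 genes, all of which were tested. Of these, 9 rose, 9 fell and 2 did not pass the test, beside 56.8% of all genes called (28.1% higher and 28.7% lower), and the median log2 fold change was 0.18 beside 0.0098. Near Cdkn1c in the cell cycle, the cyclins Ccnd1 and Ccnd2 and the kinase Cdk6 fell in RNA, from 587 ± 3.08 to 76.4 ± 0.56 CPM, from 372 ± 6.94 to 75.7 ± 0.016 CPM and from 61.0 ± 0.19 to 23.6 ± 0.76 CPM (SD, n = 2). In m6A-RIP Ccnd1 and Ccnd2 fell too, with log2 fold changes of -2.72 and -2.02, while Cdk6 had 0.38 and was not called. Cdk6 was called higher in m6A relative to RNA, at 1.72 ± 0.15 (log2, ± standard error). Other genes of the cell cycle moved both ways in RNA: the kinases Cdk2 and Cdk4, the cyclin Ccne1 and the inhibitor Cdkn1b rose, by 0.82, 0.60, 0.31 and 0.60 on the log2 scale, while the cyclin Ccnd3 and the inhibitor Cdkn1a had log2 fold changes of -0.26 and -0.57, both called. In the insulin and IGF axis that Grb10 dampens, the adaptor Irs2 rose from 70.6 ± 6.87 to 151 ± 7.97 CPM, whereas the receptors Insr and Igf1r and the adaptor Irs1 fell, with log2 fold changes of -0.72, -0.34 and -0.34. In the Notch pathway, which Dlk1 modulates, the target genes Heyl and Hey1 rose from 3.15 ± 1.01 to 51.2 ± 5.11 CPM and from 29.5 ± 1.98 to 81.3 ± 0.43 CPM; Hes1 and the receptor Notch3 also rose, by 0.47 and 0.41 on the log2 scale, and the receptor Notch1 fell, with a log2 fold change of -0.23.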

How the data were processed

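Input, m6A-RIP, Igf2bp3-RIP and Lin28a-RIP libraries of control and Lin28a+ MuSCs were compared. The input values as deposited are estimated counts listed by gene. They look like means over the transcripts of a gene and were rounded here. The RIP values as deposited are unscaled read counts of peaks; those of m6A-RIP come without positions. The paper's methods name GRCh38, a human assembly, and Hisat2 for alignment, and the submitters' processing notes also name mm10; identifiers and peak positions are those of mouse, and the strand setting, counting program and peak threshold are not given in the sources used here. Reads carry no molecular identifiers.

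Tests used edgeR 4.0.16 in R 4.3.3 (quasi-likelihood test, TMM factors, filterByExpr, Benjamini-Hochberg adjusted p under 0.05 over the whole table); DESeq2 1.42.0 was an alternative. Changes relative to RNA are interaction terms of cells and assay. CPM use TMM-scaled totals, except for Lin28a-RIP, which uses plain totals. The scripts were tested on simulated data. The interval for Cdkn1c in m6A-RIP covers counting error only. Those for the input take rounded estimates as read counts, so they may not measure that error. The members, gene lists and tests were chosen with earlier results of these data known. Other imprinted genes were named by the 5 largest changes in each direction among those called without overlap of libraries, and partners by a called log2 fold change over 1; the partners named with smaller changes were chosen after their values were seen. Spans are those of RefSeq on GRCm38.p6. The alternatives were other scaling, DESeq2, other filters, 50% overlap, peaks of at least 100 counts, 0.1 CPM as pseudocount, a replicate block and each library left out in turn. Peaks filed under 1 further gene are not reported here.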

Additional observations from a re-analysis of the deposited data

How the results depend on the processing

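With 2 libraries per group, the tests borrow the spread from other genes. DESeq2 called 3039 genes in RNA against 6432, 348 in m6A relative to RNA against 567, 262 Igf2bp3-RIP peaks against 24 and 93 genes in Igf2bp3-RIP relative to RNA against 41. A filter of at least 10 counts in every library left 0 Igf2bp3-RIP peaks called. Leaving out 1 library gave 297 to 615 genes in m6A relative to RNA, 108 to 193 Igf2bp3-RIP peaks and 0 to 562 genes in Igf2bp3-RIP relative to RNA, where the members called ranged from 0 to 1 (Plagl1, without Lin28a+ RIP replicate 1). The cause was not tested. Of 182 changes of single members recomputed under alternatives, 173 stayed as they were in direction and call, 1 lost its call, 1 gained one and 7 changed sign. The sign of Igf2r in RNA turned to 0.023 with total counts, to 0.0070 with no filter and ranged from -0.011 to 0.00018 (without Lin28a+ library a) when 1 library was left out. In m6A relative to RNA, Ndn ranged from -0.20 to 0.080, with 0.0018 without RIP Lin28a+ library b, and Cdkn1c from -0.12 (without input control replicate 1) to 0.99, with -0.048 without RIP control replicate 2. The filter of at least 10 counts in every library leaves out Cdkn1c in RNA.

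The Lin28a-RIP ratio to input of Peg3 was 4.75 with peaks counted by position, chosen after seeing the data, because that count takes in the wide peak. Relative to the median gene the ratio was 0.55 for Peg3, 4.26 for Plagl1 and 1.80 for Igf2r, and with a pseudocount of 0.1 CPM it was 5.90 for Plagl1 and 3.39 for Igf2r. The columns carry replicate numbers in both groups only for Igf2bp3-RIP. There the replicate differences of control and Lin28a+ libraries correlated at 0.70 across 19465 peaks, but with 2 pairs the libraries share only a number. With the replicate block 1988 peaks were called against 24, and 2 of the 22 member peaks, both of Plagl1, at log2 fold changes of 0.85 and 1.03 (edgeR, adjusted p of 0.00025 and 0.00051); with peaks summed per gene Plagl1 was called too, at 1.0185 (edgeR, adjusted p = 0.012), so the lack of a call for Plagl1 depends on leaving the block out. No paired analysis was possible for the input and m6A-RIP because their Lin28a+ columns carry no usable replicate numbers.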

Other observations

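The m6A-RIP rows filed under Zim1, the gene name given to the wide peak inside Peg3, fall into 2 transcripts. The 5 rows of the transcript that the peak tables also name for that peak, ENSMUST00000002336, held 93.6% of the counts and had log2 fold changes of -1.06 to -1.23, all called, whereas the 4 rows of the other transcript, ENSMUST00000203908, had -0.23 to -0.71, with 3 called. The RNA of Zim1 changed by -0.58 ± 0.13 and that of Peg3 by -1.09 ± 0.029 (log2, ± standard error). With its rows summed, Zim1 was called lower in m6A relative to RNA, by -0.63 ± 0.13 (quasi-likelihood test of edgeR, adjusted p = 0.00203). These rows carry no positions, so whether the 5 rows lie in Peg3 was not tested.

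Igf2r had no row in m6A-RIP, but 1 row was filed under Airn, which changed by 0.29 ± 0.17 (log2, ± standard error) and was not called. This row carries no position, so whether it lies in Airn or in Igf2r was not tested.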
